A study of Mus musculus with 6 samples.

Results

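Genes that build ribosomes were followed in RNA-seq of mouse embryonic fibroblasts without p53, with and without a hairpin against ARF. They are a list of 59 named genes, from RNA polymerase I (Pol I) to the assembly factors of both ribosomal subunits, and all 59 were found by symbol among the 54752 genes of the deposited count table. Read by step, 12 act in Pol I transcription, 9 in the box C/D and H/ACA small nucleolar ribonucleoproteins (snoRNPs), 21 in small subunit processing and 17 in large subunit processing. All 6 libraries come from one cell line, described as p53 deleted mouse embryonic fibroblasts, which are fibroblasts grown out from dissected embryos. The 3 shNT libraries carried a negative control shRNA (genotype label WT) and the 3 shARF libraries a p19ARF shRNA (genotype label ARF knockdown), both brought in by lentivirus. All 6 titles also carry the tag neo, whose meaning the labels do not give. Embryo age, sex, the allele or clone behind the p53 deletion and the time after infection are not in the labels. Replicates are labelled as biological, but whether they came from separate infections or cultures is not said, so the p-values measure the spread between these libraries, which may be technical. From its title, the study asked how ARF bears on transcription when p53 is lost.

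Ribosomes are made in the nucleolus. Pol I, placed on the ribosomal DNA by the SL1 factor and RRN3, transcribes a long precursor RNA, which snoRNPs modify at guided sites and which the small subunit processome and the large subunit assembly factors fold and cut into the mature ribosomal RNAs. ARF is itself a nucleolar protein, known for binding MDM2 and nucleophosmin and for restraining ribosomal RNA production and processing, and MYC is a known activator of genes of this pathway.

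Promoter windows, from 250 bases before to 50 bases after the RefSeq start (GRCm38.p6), were at hand for 53 of the 59 genes, all but Tcof1, Fbl, Wdr36, Rrp12, Bop1 and Rrs1. They were searched on both strands for the E-box CACGTG, the letters bound by MYC with MAX, because MYC is a known activator of these genes. Windows of 5 genes are printed 5′ to 3′ on the strand of the gene. Mdn1 (chr4:32656869-32657168, plus strand), Wdr43 (chr17:71615965-71616264, plus strand) and Ltv1 (chr10:13193088-13193387, minus strand) had the smallest p among genes with a CACGTG, and capitals mark it. Ddx21 (chr10:62602249-62602548, minus strand) and Gnl3 (chr14:31019082-31019381, minus strand) had the smallest p among genes without one. Capitals in Ddx21 mark its CACGCG, a related set of letters, and Gnl3 held neither.
Mdn1: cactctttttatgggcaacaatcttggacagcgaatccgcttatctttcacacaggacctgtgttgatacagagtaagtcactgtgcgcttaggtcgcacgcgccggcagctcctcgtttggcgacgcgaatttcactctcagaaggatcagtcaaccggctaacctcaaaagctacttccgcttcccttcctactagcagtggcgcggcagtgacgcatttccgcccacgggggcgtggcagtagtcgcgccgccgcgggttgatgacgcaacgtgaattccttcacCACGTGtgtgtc
Wdr43: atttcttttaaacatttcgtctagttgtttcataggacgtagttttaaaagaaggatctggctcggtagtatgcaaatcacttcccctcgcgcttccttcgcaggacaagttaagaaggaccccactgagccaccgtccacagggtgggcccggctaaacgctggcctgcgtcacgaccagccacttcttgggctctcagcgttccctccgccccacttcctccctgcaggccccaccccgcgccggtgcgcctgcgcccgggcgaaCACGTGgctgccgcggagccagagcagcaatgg
Ltv1: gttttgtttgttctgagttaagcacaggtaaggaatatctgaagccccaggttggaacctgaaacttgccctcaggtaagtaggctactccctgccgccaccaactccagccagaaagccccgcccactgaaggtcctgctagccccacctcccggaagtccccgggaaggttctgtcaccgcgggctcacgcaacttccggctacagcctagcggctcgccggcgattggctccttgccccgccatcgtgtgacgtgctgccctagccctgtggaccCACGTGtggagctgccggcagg
Ddx21: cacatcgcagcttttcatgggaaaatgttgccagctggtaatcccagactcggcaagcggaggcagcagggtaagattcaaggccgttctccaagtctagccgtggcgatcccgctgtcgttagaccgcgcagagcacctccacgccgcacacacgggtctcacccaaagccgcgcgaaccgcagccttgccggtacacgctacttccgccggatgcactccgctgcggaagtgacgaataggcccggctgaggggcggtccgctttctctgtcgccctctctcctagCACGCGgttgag
Gnl3: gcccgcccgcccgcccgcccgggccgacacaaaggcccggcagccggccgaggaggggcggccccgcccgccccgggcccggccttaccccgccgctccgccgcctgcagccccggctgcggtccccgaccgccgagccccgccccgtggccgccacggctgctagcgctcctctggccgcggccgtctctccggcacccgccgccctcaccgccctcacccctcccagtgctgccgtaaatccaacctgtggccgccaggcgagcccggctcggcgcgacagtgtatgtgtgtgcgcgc
The CACGTG lies 38, 17 and 28 bases after the start in Mdn1, Wdr43 and Ltv1. Of the 53 genes, 10 held a CACGTG (18.9%), against 7.15% of all 32851 windows of this length and 11.6% of the 10750 tested genes with a window. Of the 11 copies in these windows, 3 lay before the start. The median log2 fold change was 0.33 for the 10 genes with a CACGTG and 0.39 for the 43 without. Of these, 9 and 31 rose (28.8% of all tested genes did), and the difference was not tested. Genes without a window, from Tcof1 at 0.01 to Bop1 at 0.87, are not in this comparison. Of the other letters searched, CACGCG was in 32.1% of the 53 genes (9.27% of all windows, 19.8% of tested genes) and CCGGAAG, bound by ETS factors, in 39.6% (8.86% and 19.6%). These 3 shares were not particular to the 53 genes. Of 124 other genes of the pathway with a window, ribosomal proteins left out, 24 held CACGTG, 40 CACGCG and 47 CCGGAAG. Of 57 ribosomal protein genes, 6, 10 and 24 did. CCAAT was in 34.0% of the 53 genes (37.4% of all windows and 43.2% of tested genes), TATAAA in 3.77% (13.6% and 9.01%) and the motif of NRF1 in 0 of 53 (0.971% and 2.26%). A copy of one motif that overlaps another was counted for both, and a match describes the letters of the window, not binding.

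Total counts were 40.3 to 47 M per library, and the lowest count of any of the 59 genes in a library was 342. Levels are counts per 1 M counts (CPM) scaled by TMM factors, and differences are log2 fold changes of shARF against shNT from edgeR's quasi-likelihood test, with their standard error (SE) and a p adjusted by Benjamini-Hochberg over 17128 tested genes; a gene is said to rise or fall where that p is under 0.05. Cdkn2a, which encodes ARF together with p16INK4A, had 231, 218 and 223 CPM in shNT and 95.6, 103 and 107 CPM in shARF, a log2 fold change of -1.14 (SE 0.05, adjusted p = 2.52e-06). Both groups differed widely: 28.8% of tested genes rose and 27.7% fell, 56.4% in all, and the first principal component held 82.1% of the variance. With library sizes alone as the scaling, 4023 genes rose and 5874 fell, against 4930 and 4737, and the median of all genes was -0.1 rather than -0.01. All 12 fibroblast markers were above 1 CPM in shARF (summed 26948 to 27435 CPM) and 11 in shNT (22896 to 24509 CPM). Summed epithelial markers were 36.8 to 39.7 CPM in shNT and 34.4 to 35.9 in shARF, endothelial 2.4 to 2.99 and 2.81 to 3.62 (Cdh5 and Tie1 at 0), blood cell 6.73 to 7.47 and 1.5 to 1.99 (Adgre1, Itgam and Cd3e among those at 0), neural 26.7 to 29.6 and 36.6 to 41.7 (Sox2, Sox10 and Olig2 at 0) and muscle 0.0821 to 0.0972 and 0.268 to 0.649 (Myod1, Myog and Ckm at 0). Xist fell from 387 to 45.7 CPM while the Y-linked Kdm5d rose from 0.782 to 19.5 and Ddx3y from 24.4 to 85.3, so a difference between the cultures and an effect of the hairpin cannot be told apart. Of 12 proliferation genes 4 rose (33.3%) and 5 fell (41.7%), against 28.8% and 27.7% of all tested genes. Their sums were 3254 to 3358 CPM in shNT and 3232 to 3280 in shARF. Single markers moved in both directions under such sums. Log2 fold changes ran from -6.38 to 9.43 over 6 tested epithelial markers and from -4.94 to 3.47 over 2 endothelial ones. Over the 12 fibroblast markers they ran from -2.46 to 1.11. The part of these markers in the results that follow was not tested. In bulk RNA, fewer cells of a type and less RNA per cell cannot be told apart.

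Most of the pathway was higher in the ARF knockdown cells, by modest amounts. Of the 59 genes, 45 rose (76.3%, against 28.8% of all tested genes), 5 fell (8.47%, against 27.7%) and 9 did not pass the test. The median log2 fold change was 0.39, against -0.01 over all genes, and values ran from -0.49 for Taf1c to 0.87 for Bop1. Rises were small in size: 11 genes rose at least 1.5-fold (12.2% of all tested genes did) and none reached 2-fold. Summed over the 59 genes, the level was 4999, 4895 and 4883 CPM in shNT and 6426, 6376 and 6304 CPM in shARF, a ratio of 1.29. The groups of 3 libraries did not overlap, and the exact two-sided permutation p was 0.1, the smallest that 3 against 3 allows.

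The rise was even across libraries and uneven across steps. Against the mean of shNT, the median difference of the 59 genes was 0.37, 0.38 and 0.39 on the log2 CPM scale in shARF replicates 1, 2 and 3. Gene by gene, 46 had all shARF libraries above all shNT libraries (32.6% of all tested genes did, and 39.2% of those at like levels) and 6 had them below (32.0% of all). All 59 lie between 8.43 and 356 CPM on average over the 6 libraries, and among the 9737 tested genes in that range 35.9% rose and 30.4% fell, with a median of 0.03. Median log2 fold changes were 0.16 for Pol I transcription, 0.41 for snoRNP, 0.39 for small subunit and 0.53 for large subunit genes. Their summed levels were 1.22, 1.3, 1.27 and 1.39 times those of shNT, while the summed level of 78 cytosolic ribosomal protein genes was 0.981 times (exact permutation p = 0.5).

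**Figure D1:**
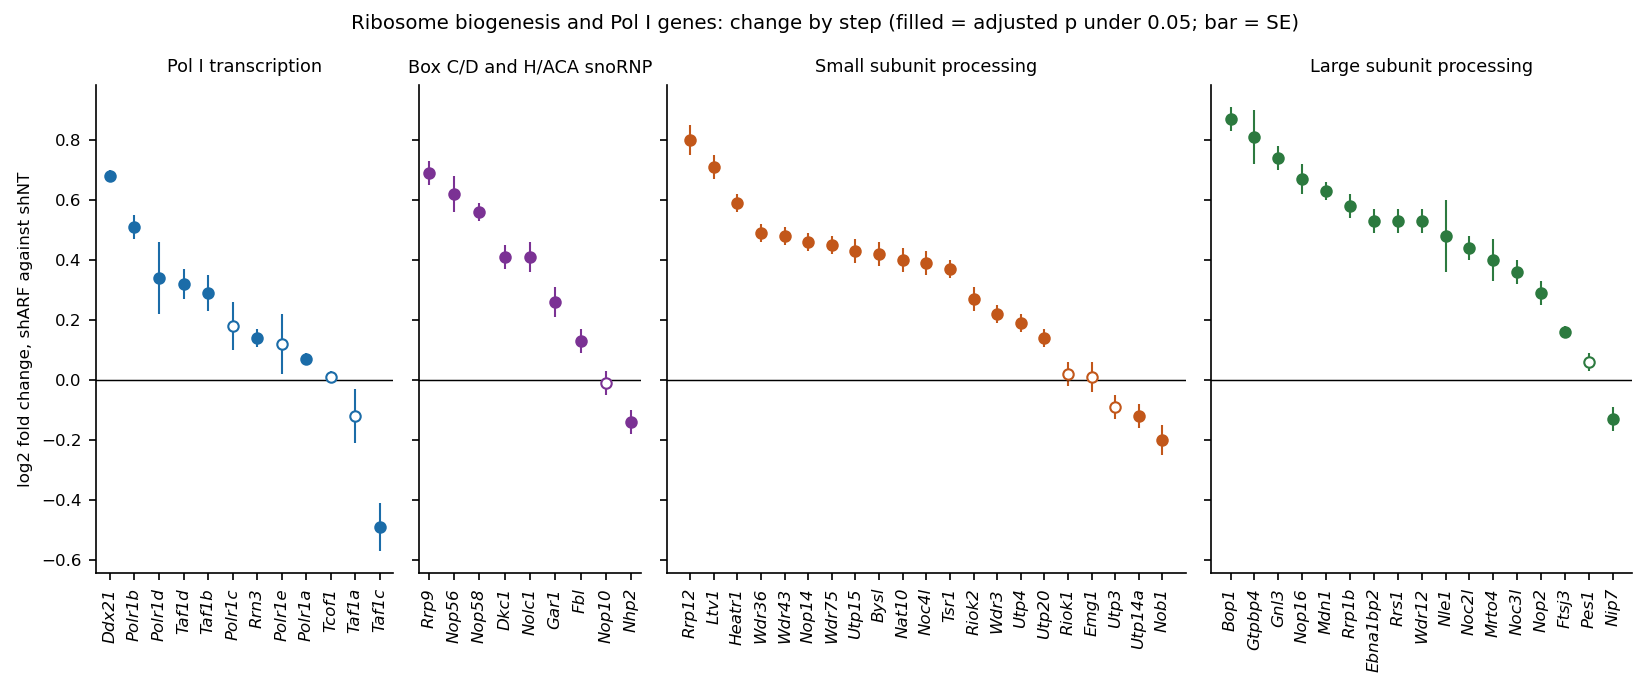
Log2 fold change of each of the 59 genes (y axis, shARF against shNT), by step (panels) and ordered by size. Filled points passed an adjusted p of 0.05, open points did not, and bars are the SE of the fit. The 17 large subunit genes reach highest, with Bop1 at 0.87, and Taf1c is lowest at -0.49.

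**Figure D2:**
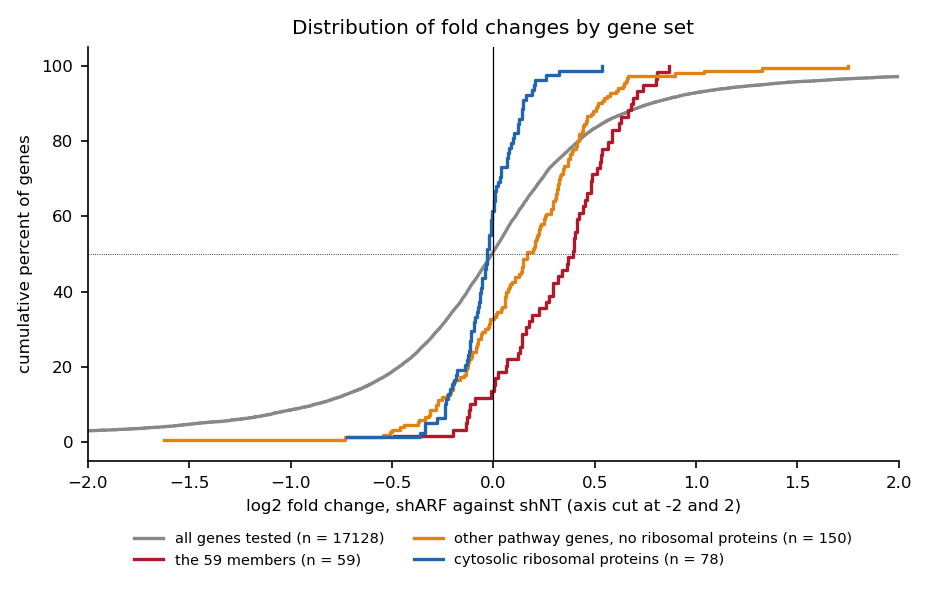
Cumulative percent of genes (y axis) at or below each log2 fold change (x axis) for all 17128 tested genes, the 59 genes, 150 other genes of the pathway and 78 ribosomal protein genes. The curve of the 59 genes lies to the right of the others around its median of 0.39, and the ribosomal protein curve crosses 50% near -0.03.

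Pol I transcription had the lowest median of the 4 steps, 0.16 (0.17 after the centring described further on). Of 12 genes 7 rose (58.3%, against 28.8% of all tested genes), Taf1c fell (8.33%, against 27.7%), and Polr1c, Polr1e, Taf1a and Tcof1 did not pass. Ddx21 (ENSMUSG00000020075.8, chr10:62580251-62602281), a nucleolar RNA helicase that couples Pol I transcription to processing, had 282, 268 and 272 CPM in shNT and 441, 440 and 434 CPM in shARF. The libraries of each group lie close together and far apart from the other group, for a log2 fold change of 0.68 (SE 0.02, adjusted p = 1.66e-06). Polr1b, which with Polr1a forms the catalytic centre of the enzyme, had 56.9, 54.1 and 56.6 CPM in shNT and 81.0, 80.3 and 77.8 CPM in shARF. It rose by 0.51 (SE 0.04, adjusted p = 3.21e-05), with no overlap between groups. Its partner Polr1a, the largest subunit, stood at 226, 224 and 222 CPM against 234, 233 and 237 CPM. That is a rise of 0.07 (SE 0.02, adjusted p = 0.0212), small beside that of Polr1b but free of overlap.

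The smaller subunits varied more between libraries. Polr1d, a subunit shared with RNA polymerase III, had 59, 59.4 and 72.9 CPM in shNT and 76.0, 73.2 and 92.6 CPM in shARF. Replicate 3 was the highest of each group, and the groups were apart by a narrow margin, with a log2 fold change of 0.34 (SE 0.12, adjusted p = 0.0442). Polr1c, the other shared subunit, ran from 38.4 to 47.4 CPM in shNT and from 45.4 to 51.1 CPM in shARF, which overlap (0.18, adjusted p = 0.118). Polr1e, a subunit of the heterodimer that aids initiation and elongation, overlapped too, at 17.7 ± 1.85 against 19.2 ± 1.72 CPM (SD, n = 3; log2 fold change 0.12). Rrn3, which joins Pol I to the promoter, rose from 135 ± 2.62 to 149 ± 2.44 CPM (SD, n = 3; log2 fold change 0.14).

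SL1 is the selectivity factor of the ribosomal DNA promoter. Of its 4 TATA-binding protein-associated subunits on the list, 2 rose (50%) and 1 fell (25%), against 28.8% and 27.7% of all tested genes. None of these 3 calls was made after centring on windows, when Taf1d stood at 0.06, Taf1b at 0.12 and Taf1c at -0.20. Taf1d had 154, 149 and 136 CPM in shNT and 186, 178 and 184 CPM in shARF, a rise of 0.32 (SE 0.05, adjusted p = 0.00134). Taf1b rose from 14.5 ± 0.87 to 17.8 ± 0.46 CPM (SD, n = 3; log2 fold change 0.29). Taf1c (ENSMUSG00000031832.15, chr8:119597871-119605222) had 16.2, 15.7 and 16.4 CPM in shNT and 12.6, 10.2 and 11.6 CPM in shARF. All shARF libraries lie below all shNT libraries, and it fell by 0.49 on the log2 scale (SE 0.08, adjusted p = 0.00202), the largest fall of the 59 genes. Of its exonic bases 16.7% overlap Dnaaf1 on the opposite strand, which had 0 counts. Taf1a stood at 8.78 ± 0.809 and 8.09 ± 0.401 CPM (SD, n = 3; log2 fold change -0.12), with overlap. Tcof1, the treacle protein that holds Pol I and its factors at the ribosomal DNA, had 239, 233 and 239 CPM against 238, 236 and 239 CPM and was the nearest to 0 of the 12, at 0.01 (SE 0.02).

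Some Pol I calls depended on single libraries. Polr1d lost its call without shNT replicate 1 (adjusted p = 0.125), shNT replicate 2 (0.122), shARF replicate 1 (0.0617) or shARF replicate 3 (0.114), in a range of 0.00196 to 0.153 over 18 alternatives. Polr1a lost it without shNT replicate 2 (0.0632), shNT replicate 3 (0.0569) or shARF replicate 3 (0.0717), range 8.8e-06 to 0.424, and Polr1c gained one without shNT replicate 3 (0.0408), range 0.0118 to 0.4. With library sizes alone as the scaling, 4 of the 12 rose and 2 fell, Rrn3 lost its call (0.05, adjusted p = 0.177, range 0.000345 to 0.177) and Tcof1 was called lower (-0.08, adjusted p = 0.0104, range 0.0104 to 0.92).

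All 3 box C/D core genes rose, with a median of 0.56, and 2 of the 4 H/ACA core genes did, with a median of 0.13; the difference between the particles was not tested. Box C/D snoRNPs guide methylation of ribosomal RNA and H/ACA snoRNPs guide pseudouridylation. Of the 9 genes 7 rose (77.8%, against 28.8% of all tested genes), Nhp2 fell (11.1%, against 27.7%) and Nop10 did not pass. Nop58, a scaffold of the box C/D particle, had 110, 113 and 109 CPM in shNT and 168, 160 and 161 CPM in shARF (0.56, SE 0.03, adjusted p = 6.61e-06). Its partner Nop56 had 110, 109 and 121 CPM in shNT and 179, 181 and 161 CPM in shARF (0.62, SE 0.06, adjusted p = 0.000158). Both scaffolds were higher in every shARF library. The methyltransferase Fbl rose far less, from 74.3, 75.6 and 73.9 CPM to 81.7, 85.6 and 78.3 CPM (0.13, SE 0.04, adjusted p = 0.0271). The largest change of the step was in Rrp9, a protein of the U3 particle that acts in the small subunit processome, with 31.5, 32.6 and 31.2 CPM in shNT and 53.2, 50.9 and 49.6 CPM in shARF (0.69, SE 0.04, adjusted p = 1.81e-05). Its groups lie apart by more than the whole range within either.

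In the H/ACA particle, Dkc1, the pseudouridine synthase, rose from 82.5, 78.2 and 77.4 CPM to 107, 106 and 104 CPM (0.41, SE 0.04, adjusted p = 7.76e-05). Gar1 rose from 26.2 ± 1.41 to 31.4 ± 0.558 CPM (SD, n = 3; log2 fold change 0.26). The other core proteins did not follow. Nhp2 had 80.3, 78.5 and 84.1 CPM in shNT and 73.4, 74.0 and 73.5 CPM in shARF. It fell by 0.14 on the log2 scale (SE 0.04, adjusted p = 0.0145), with all shARF libraries below all shNT libraries, but was at 0.02 after centring on its window. Nop10 had 40.6, 41.9 and 43.9 CPM against 42.2, 42.3 and 41.1 CPM, which overlap (-0.01, SE 0.04). Nolc1, a chaperone that binds both particle types, rose from 142 ± 9.46 to 188 ± 5.38 CPM (SD, n = 3; log2 fold change 0.41). The call of Fbl was lost without shNT replicate 1 (adjusted p = 0.0873), 2 (0.0547) or 3 (0.0841) and without shARF replicate 1 (0.0605) or 2 (0.0737), in a range of 0.000227 to 0.412 over 18 alternatives.

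Small subunit processing genes rose broadly. Of 21 genes 16 rose (76.2%, against 28.8% of all tested genes), Nob1 and Utp14a fell (9.52%, against 27.7%), and Utp3, Emg1 and Riok1 did not pass. UTP-A is the complex that binds the precursor RNA earliest. Its 5 genes on the list all rose: Heatr1, Wdr43, Wdr75, Utp15 and Utp4. Heatr1 had 129, 127 and 124 CPM in shNT and 187, 197 and 187 CPM in shARF (0.59, SE 0.03, adjusted p = 7.37e-06). Wdr43 had 149, 145 and 143 CPM in shNT and 209, 202 and 199 CPM in shARF (0.48, SE 0.03, adjusted p = 1.27e-05). Every shARF library of both genes lies above every shNT library. Wdr75 (0.45) and Utp15 (0.43) rose by like amounts and Utp4 by less (0.19, adjusted p = 0.00151).

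Factors of later small subunit steps held the extremes. Rrp12, which accompanies the small subunit out of the nucleus, had 62.4, 58.6 and 56.8 CPM in shNT and 106, 106 and 97.2 CPM in shARF, the largest rise of the step (0.80, SE 0.05, adjusted p = 2.21e-05). Ltv1, an export and maturation factor, had 36.7, 38.2 and 35.3 CPM in shNT and 60.6, 59.5 and 60.2 CPM in shARF (0.71, SE 0.04, adjusted p = 1.29e-05). Nob1, the nuclease that makes the last cut of small subunit ribosomal RNA, went the other way, with 45.6, 48.4 and 48.7 CPM in shNT and 43.5, 41.2 and 39.6 CPM in shARF. It fell by 0.20 on the log2 scale (SE 0.05, adjusted p = 0.0136), and the groups did not overlap, but the call was not made after centring on its window (adjusted p = 0.957, range 0.00227 to 0.957 over 18 alternatives). Bysl (0.42), Tsr1 (0.37) and the kinase Riok2 (0.27) rose, while the related kinase Riok1 stood at 37.6 ± 0.293 and 38.2 ± 0.659 CPM (SD, n = 3; log2 fold change 0.02). Of the exonic bases of Tsr1, 32.3% overlap Srr on the opposite strand, whose counts were lower in shARF (612 to 680) than in shNT (982 to 1220), and 9.37% of those of Bysl overlap Ccnd3.

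Among the remaining genes of the step, Wdr36 (0.49), Nop14 (0.46), the RNA acetyltransferase Nat10 (0.40), Noc4l (0.39), Wdr3 (0.22) and Utp20 (0.14) rose. Utp14a had 49.2, 51.2 and 49.3 CPM in shNT and 47.3, 44.3 and 46.5 CPM in shARF, a fall of 0.12 on the log2 scale that barely passed (SE 0.04, adjusted p = 0.0484). Utp3 was lower in every shARF library, at 53.3, 56.0 and 53.8 CPM against 58.0, 59.9 and 56.0 CPM, and did not pass (-0.09, adjusted p = 0.0971). The methyltransferase Emg1 was nearest to 0, at 62.5 ± 0.599 and 62.9 ± 4.31 CPM (SD, n = 3; log2 fold change 0.01). The call of Utp14a was lost with any library left out, at adjusted p = 0.073, 0.144 and 0.0659 without shNT replicates 1, 2 and 3 and 0.0618, 0.156 and 0.095 without shARF replicates 1, 2 and 3 (range 0.00534 to 1.0 over 18 alternatives). Utp20 lost its call with library sizes alone as the scaling (0.05, adjusted p = 0.272, range 0.00264 to 0.272), and Utp3 gained one (-0.18, adjusted p = 0.0105, range 0.00562 to 0.275).

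Large subunit factors had the highest median, 0.53, though not after centring, when it was 0.38 beside 0.38 for small subunit and 0.39 for snoRNP genes. Of 17 genes 15 rose (88.2%, against 28.8% of all tested genes), Nip7 fell (5.88%, against 27.7%) and Pes1 did not pass. At least 1.5-fold rises were seen in 5 (12.2% of all tested genes had one). Bop1 (ENSMUSG00000022557.11, chr15:76452989-76477277), a scaffold of the PeBoW complex that acts in the maturation of large subunit ribosomal RNA, had 107, 107 and 113 CPM in shNT and 206, 197 and 195 CPM in shARF. No other of the 59 genes had a larger log2 fold change (0.87, SE 0.04, adjusted p = 2.53e-06), though after centring Gtpbp4 stood at 0.76 and Bop1 at 0.75. Wdr12, another PeBoW protein, rose from 35.0 ± 1.36 to 50.7 ± 0.633 CPM (SD, n = 3; log2 fold change 0.53). Pes1, the third, had 145, 144 and 143 CPM in shNT and 153, 152 and 146 CPM in shARF. Its groups did not overlap, yet the difference did not pass (0.06, SE 0.03, adjusted p = 0.0841).

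The GTPases Gnl3 and Gtpbp4 and the giant ATPase Mdn1 rose. Gnl3 (nucleostemin), a nucleolar GTPase, had 63.0, 60.5 and 60.7 CPM in shNT and 101, 100 and 106 CPM in shARF (0.74, SE 0.04, adjusted p = 5.26e-06). Mdn1 (midasin), the ATPase that strips assembly factors from the large subunit, had 216, 199 and 204 CPM in shNT and 322, 321 and 316 CPM in shARF (0.63, SE 0.03, adjusted p = 7.68e-06). Every shARF library of both lies above every shNT library; of the windows printed above, that of Mdn1 holds a CACGTG and that of Gnl3 does not. The GTPase Gtpbp4 rose by 0.81, from 88.2, 85.3 and 69.1 CPM to 143, 143 and 140 CPM (SE 0.09), with shNT replicate 3 the lowest. Nle1, which binds midasin, had 15.5, 12.4 and 16.5 CPM in shNT and 22.7, 20.1 and 19.2 CPM in shARF (0.48, SE 0.12, adjusted p = 0.0117).

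Among the other large subunit genes, Nop16 (0.67), Rrp1b (0.58), Ebna1bp2 (0.53), Rrs1 (0.53), Noc2l (0.44), Mrto4 (0.40), Noc3l (0.36), the RNA methyltransferase Nop2 (0.29) and the methyltransferase Ftsj3 (0.16) rose. Noc2l shares 20.9% of its exonic bases with Samd11 on the opposite strand, which had 0 counts. Nip7 had 62.8, 62.0 and 61.8 CPM in shNT and 58.6, 58.1 and 53.6 CPM in shARF. It fell by 0.13 on the log2 scale (SE 0.04, adjusted p = 0.0396), with shARF replicate 3 the lowest. The call was lost without shNT replicates 1, 2 and 3 (adjusted p = 0.0944, 0.0922 and 0.0668) and without shARF replicates 2 and 3 (0.0618 and 0.102), range 0.00477 to 0.265 over 18 alternatives. Pes1 gained a call without shARF replicate 3 (0.08, adjusted p = 0.0493, range 0.0493 to 0.428). Over the 59 genes, 3 fell rather than 5 without shNT replicate 1, 2 or 3 or shARF replicate 2 or 3.

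**Figure D3:**
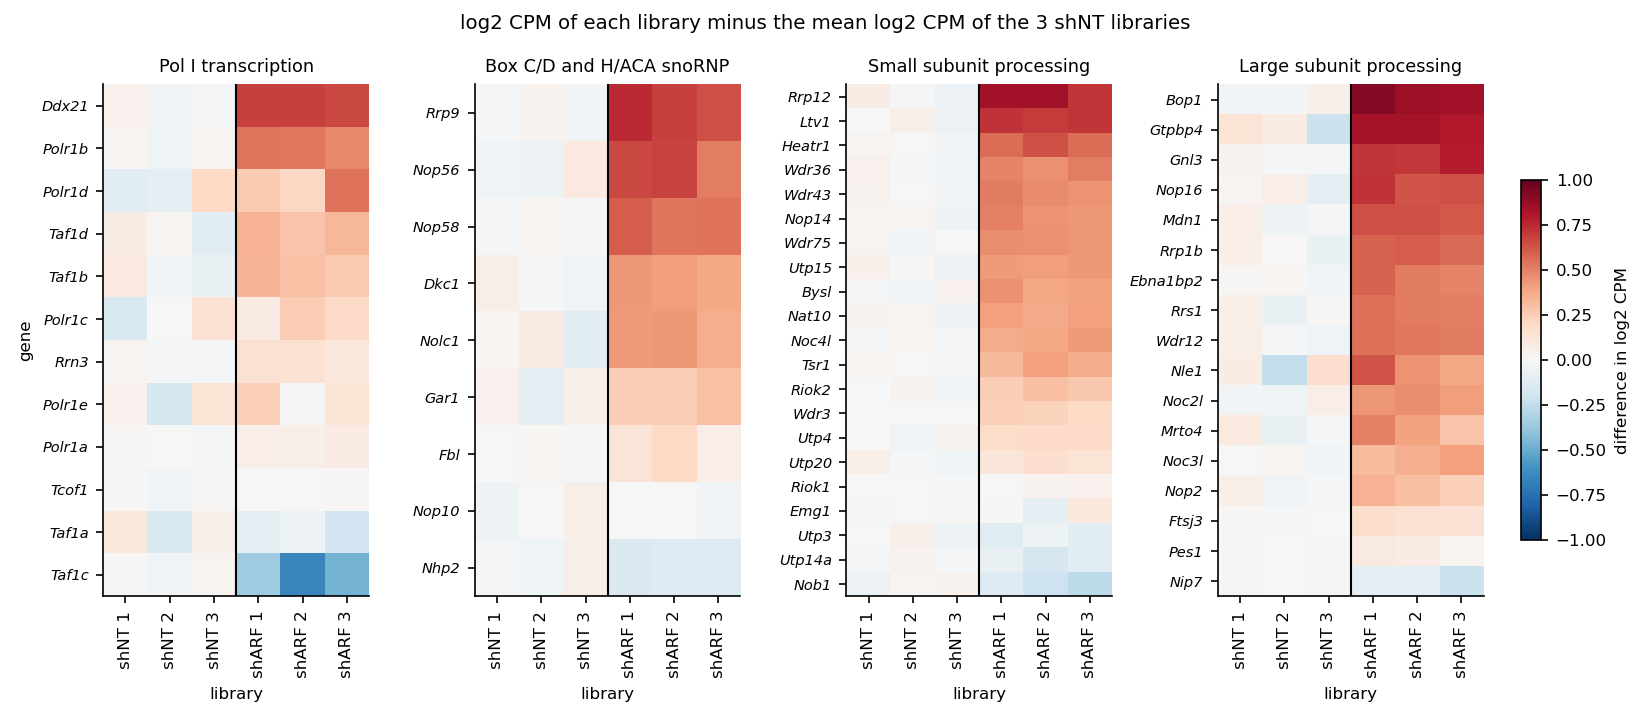
Log2 CPM of each library minus the mean of the 3 shNT libraries (colour scale, red higher and blue lower) for the 59 genes (rows), by step (panels) and library (columns). The 3 shARF columns look alike within most rows, and Taf1c, Nob1, Nip7, Nhp2 and Utp14a are the rows that fell.

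Members of a complex were also compared per length, as CPM per kb of the principal transcript. The transcripts of the 3 box C/D core genes among the 59 lay within 1.07-fold of each other in shNT, from 60.4 for Nop56 to 64.4 for Nop58. In shARF they lay within 1.39-fold, from 68.4 for Fbl to 95.2 for Nop58. In PeBoW, Pes1 was highest in shNT, at 49.5 against 43.9 CPM per kb for Bop1, and Bop1 was highest in shARF, at 80.1 against 51.7. The ratio of Bop1 to Pes1 counts was 0.736, 0.745 and 0.792 in shNT and 1.34, 1.3 and 1.33 in shARF. The ratios did not overlap, and the log2 ratio was 0.81 higher in shARF (exact two-sided permutation p = 0.1, the smallest possible).

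The count ratios of other pairs changed as well. By level per kb, Taf1d and Taf1c lay further apart in shARF than in shNT. Ltv1 and Nob1 lay closer together, as did Dkc1 and Nhp2. The ratio of Ltv1 to Nob1 went from 0.806, 0.79 and 0.725 to 1.39, 1.44 and 1.52, a log2 difference of 0.91, with Ltv1 at 0.58 and Nob1 within 0.01 of 0 after centring. Among 6 late small subunit factors Ltv1 moved from the fourth to the second highest level per kb. The ratio of Dkc1 to Nhp2 went from 1.03, 0.996 and 0.921 to 1.46, 1.43 and 1.41 (0.55). Between its highest (Nhp2) and lowest (Gar1) level per kb, the H/ACA core spanned 3.77-fold in shNT and 2.86-fold in shARF. The ratio of Taf1d to Taf1c went from 9.51, 9.47 and 8.28 to 14.8, 17.4 and 15.9 (0.82), with the log2 fold changes after centring closer together, at 0.06 and -0.20. Each of the 9 pairs computed had groups that did not overlap, each at the exact permutation p of 0.1. All 9 pairs, Bop1 to Pes1 among them, were chosen with these changes known. The ratios are therefore a description, and neither the lack of overlap nor the p is a test of them. The 5 UTP-A genes on the list kept their order of levels, with Wdr43 highest (42.2 and 58.9 CPM per kb) and Utp15 lowest (11.4 and 15.3). Levels per kb depend on the length used: for Taf1d, which hosts snoRNAs, the shNT level was 127 by its principal transcript and 16.3 by all annotated exons.

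**Figure D4:**
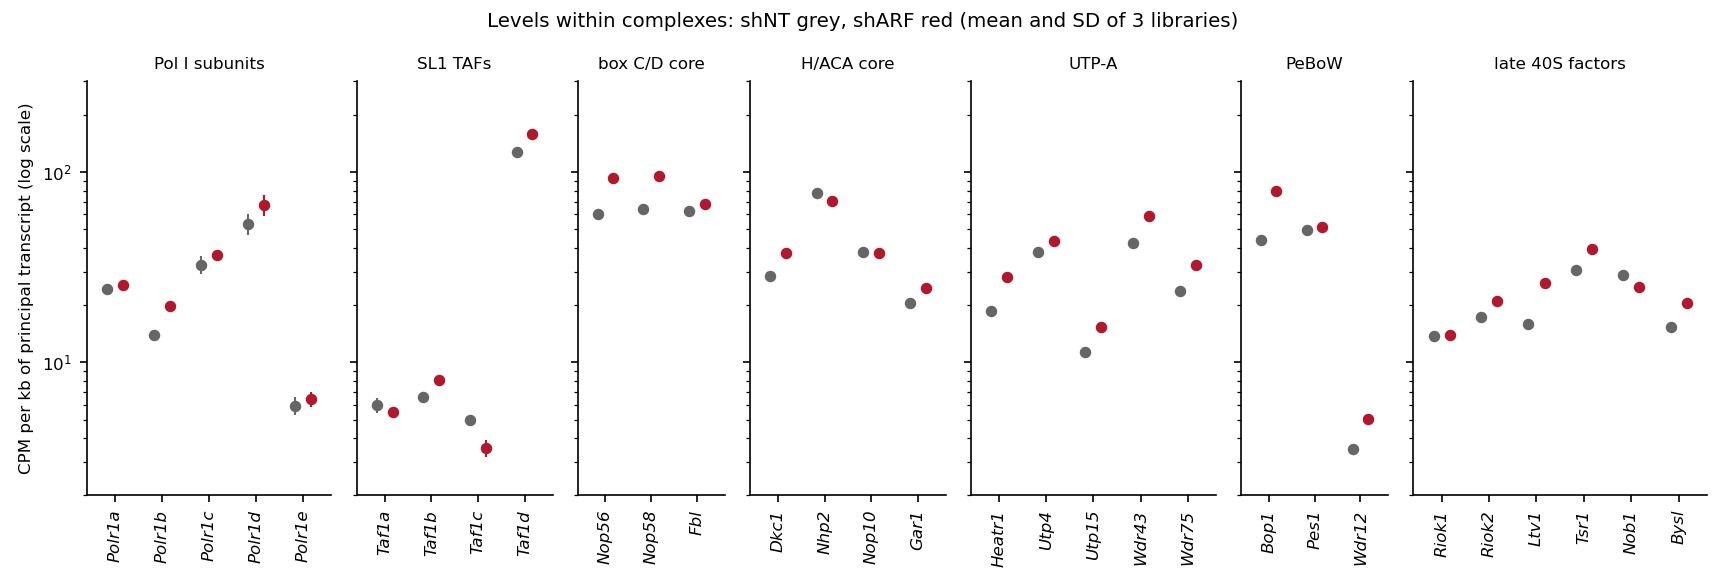
Level in CPM per kb of the principal transcript (y axis, log scale) of the genes of 7 complexes or groups (panels), as the mean and SD of 3 shNT (grey) and 3 shARF (red) libraries. Bop1 passes Pes1 in shARF, the 5 UTP-A genes on the list are higher in shARF, and Taf1c is lower.

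The falls lay partly in regions where other genes were lower too. Of the 5 genes that fell, Taf1c, Nob1 and Nip7 lie on chromosome 8, where the median of all tested genes was -0.27, and Utp14a lies on X, where it was -0.14. On chromosome 8 the fourth gene, Utp4, rose by 0.19. When each fold change was centred on the median of its 10 Mb window, none of these falls passed: Taf1c stood at -0.20 (adjusted p = 0.0741, range 2.92e-05 to 0.0741 over 18 alternatives), Nhp2 at 0.02, Nip7 at 0.06, and Utp14a and Nob1 within 0.01 of 0. Utp3 (-0.20) and Tcof1 (-0.06) were called lower instead.

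Of the 45 rises, 40 were also called after centring. After centring 41 of the 59 genes were called higher (28.1% of all tested genes were) and 2 lower (25.7% of all). Gnl3, in a window with a median of 0.39, went from 0.74 to 0.35 (adjusted p = 0.000193, range 3.15e-53 to 0.000267 over 18 alternatives). Calls were lost for Noc3l (0.36 to 0.05), Taf1d (0.32 to 0.06), Taf1b (0.29 to 0.12), Polr1d (0.34 to 0.22) and Mrto4 (0.40 to 0.20). Other genes grew: Polr1a went from 0.07 to 0.37, Fbl from 0.13 to 0.39, Rrp1b from 0.58 to 0.73, and Polr1c was called at 0.35. The median of the 59 genes was 0.35.

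**Figure D5:**
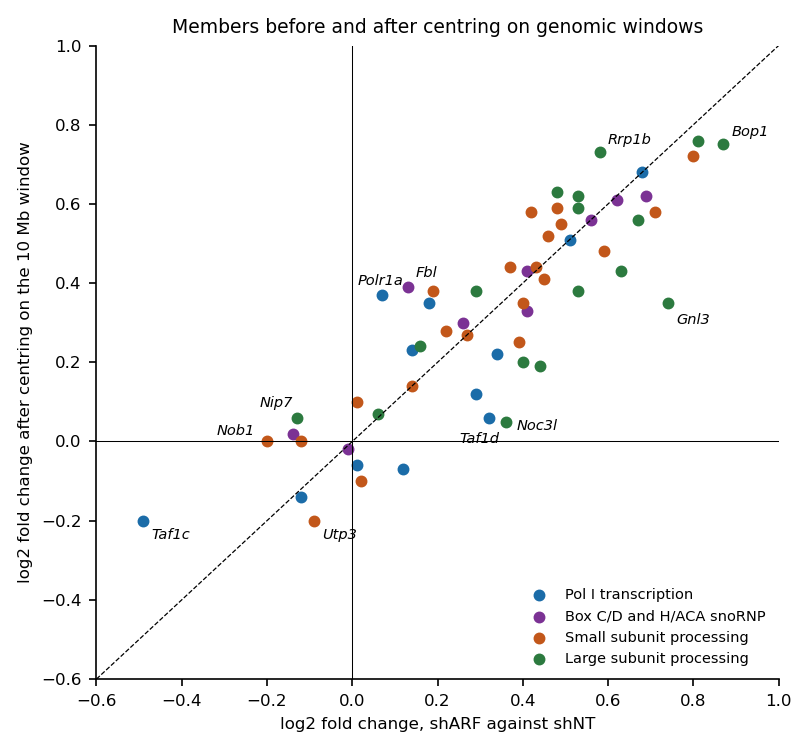
Log2 fold change of the 59 genes before (x axis) and after (y axis) centring on the median of the 10 Mb window, coloured by step, with the dashed line of equal values. Taf1c rises from -0.49 to -0.20, Gnl3 drops from 0.74 to 0.35, and Polr1a climbs from 0.07 to 0.37.

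The wider pathway was less uniform. Of 150 tested genes from 9 further lists, without the ribosomal proteins, 74 rose (49.3%) and 27 fell (18%), with a median of 0.17. Over all tested genes these shares were 28.8% and 27.7%. Among other Pol I subunits and ribosomal DNA factors 5 of 13 rose (38.5%) and 4 fell (30.8%), against 28.8% and 27.7% of all tested genes, and with library sizes alone 4 rose and 6 fell. The Pol I stalk subunit Twistnb (0.50) and Ubtf (0.32), the architectural factor of active ribosomal DNA, rose, while Ttf1, which terminates Pol I transcription and is known to be moved by ARF, fell from 24.5, 24.7 and 23.0 CPM to 17.1, 16.4 and 17.3 CPM (-0.51, adjusted p = 0.000164). Smarca5, a chromatin remodeller on chromosome 8, fell by 0.13 on the log2 scale but was called higher at 0.17 after centring on its window. Among 7 nucleolar partners of ARF, 3 rose (42.9%) and 2 fell (28.6%), against 28.8% and 27.7% of all tested genes. Npm1 (nucleophosmin) rose by 0.23, Ncl (nucleolin) by 0.33, and Mdm2 fell by 0.34.

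Among other assembly factors of either subunit, more genes rose than fell, while over all tested genes 28.8% rose and 27.7% fell. Of other small subunit factors 17 of 27 rose (63%) and 6 fell (22.2%), with Mphosph10 at 0.66, Dimt1 at 0.64 and Pno1 at 0.55 against Ddx49 at -0.37 and Ddx52 at -0.31. Centring on windows left 15 rises and 4 falls, with Ddx49, on chromosome 8, at -0.03 (adjusted p = 0.528) and Ddx52 at -0.16. Of other large subunit factors 22 of 40 rose (55%) and 2 fell (Nop53 at -0.21 and Efl1 at -0.13), with Ppan at 0.58, Nol9 at 0.51 and Rsl1d1 at 0.30. With library sizes alone as the scaling these counts of large subunit factors were 16 and 6, and after centring 20 and 0. Efl1 lost its call without shNT replicate 1 or 2 or any 1 shARF library (adjusted p from 0.0602 to 0.117, range 0.00504 to 0.117 over 18 alternatives), so that 1 gene of the list fell without shNT replicate 1 or 2 or shARF replicate 2 or 3. Of snoRNP assembly genes 3 of 10 rose (30%, near the 28.8% of all tested genes), Ruvbl2 (0.61), Snu13 (0.44) and Nufip1 (0.39), and Pih1d1 fell (-0.27). There were 2 falls without shNT replicate 3, and 6 rises and 0 falls after centring. With library sizes alone 3 rose and 3 fell. Of the RNA exosome, which trims precursor ends, 6 of 13 rose (46.2%) and 4 fell (30.8%, near the 27.7% of all tested genes). These include Exosc7 (0.54) and Mtrex (0.34) against Exosc8 (-0.23) and C1d (-0.32). Without shNT replicate 2 or shARF replicate 1 or 2 the exosome had 2 falls. Centring on windows left it 5 rises and 2 falls, with C1d at -0.08 (adjusted p = 0.31) and Exosc8 at -0.33.

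RNA polymerase III, which makes the smallest ribosomal RNA and transfer RNAs, had 9 of 21 genes higher (42.9%, against 28.8% of all) and 4 lower (19%, against 27.7%). The balance turned with scaling, to 8 higher and 10 lower with library sizes alone, and was 8 and 7 with upper quartile scaling. Polr3g rose from 12.2, 11.8 and 12.5 CPM to 30.4, 30.7 and 30.4 CPM (1.32, SE 0.04, adjusted p = 1.17e-06), a change beyond that of any of the 59 genes, and Gtf3c5 (-0.50) and Brf2 (-0.55) fell. Of 10 long noncoding RNA hosts of snoRNAs 7 rose (70%, against 28.8% of all tested genes) and none fell (27.7% of all did). Among those that rose were Snhg5 (1.04), Snhg12 (0.90) and Snhg1 (0.41). In the MYC network 3 of 12 genes rose (25%, under the 28.8% of all tested genes) and 5 fell (41.7%, against 27.7%). Myc had 64.3, 62.5 and 59.6 CPM in shNT and 95.2, 98.3 and 97.0 CPM in shARF (0.64, SE 0.04, adjusted p = 1.37e-05). Mycn rose from 1.13 to 3.79 CPM and Max, the common partner, by 0.66, while the MYC antagonists Mxd1 (-1.62) and Mxd4 (-0.46) fell. Max lost its call after centring on its window, where it stood at 0.30 (adjusted p = 0.196). The call was also lost without shARF replicate 1 (adjusted p = 0.0564) or 2 (0.0554), range 0.000181 to 0.196 over 18 alternatives. Whether these levels bear on the 59 genes was not tested.

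Of 78 ribosomal protein genes 13 rose (16.7%) and 18 fell (23.1%), both under the shares of all tested genes (28.8% and 27.7%). Their median was -0.03, and Rps24 (0.32), Rpl5 (0.20) and Rpl4 (0.16) stand beside Rps2 (-0.72) and Rps3a1 (-0.34). These counts depend on scaling, with 5 rises and 44 falls with library sizes alone and 16 and 10 after centring, and on single libraries, with 20 rises without shNT replicate 3 and 11 falls without shARF replicate 2. Ribosomal protein genes have many near-identical pseudogenes, and the labels do not say how reads that map to several places were counted, so single values of this list are uncertain.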

How the data were processed

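The authors deposited one table of whole-number counts per gene for 6 libraries, named by mouse Ensembl gene ID. Per the labels' protocols, stranded libraries were made from total RNA after ribosomal RNA depletion; no batch is named. Per the submitters' processing notes, the build was GRCm38, and HISAT2 2.1.0 and StringTie 1.3.2 are among the tools listed, with no roles. The counting tool, annotation, strand setting and any removal of duplicates are not stated in labels or file; without strand, reads of overlapping genes on opposite strands cannot be told apart. A further 6 columns match no sample and were not used. Symbols and coordinates came from GENCODE M21 (54723 of 54752 IDs matched, version ignored).

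The counts as deposited were tested with edgeR 4.0.16 in R 4.3.3: TMM, filterByExpr (minimum count 10, minimum total 15), glmQLFit and glmQLFTest with group as the sole term, two-sided, Benjamini-Hochberg over 17128 genes at 0.05. The SE is the log2 fold change divided by the root of F. Groups and replicate numbers came from the titles. The numbers do not pair the libraries (same-number correlations of deviations -0.131, -0.0468 and -0.0331). The edgeR and limma-voom fits, not the steps of the pathway, were run on simulated data. Changes were planted there in far fewer genes than the 56.4% called here. The 59 genes, the other lists, the tests and the alternatives were chosen with earlier results of these data known. Values were given in full, per step, for the 3 rising genes of smallest p, up to 3 falling genes, the largest and smallest change and genes whose call changes. From other lists up to 3 higher and 2 lower genes of smallest p were named. Other genes were named after their values were seen.

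The 18 alternatives were RLE, upper quartile and library sizes alone, 3 filters, DESeq2 1.42.0, limma-voom (limma 3.58.1), a replicate block, structural RNAs left out, a threshold of 0.01, each library left out and centring on 10 Mb windows of at least 15 tested genes. List entries not found in the table under their symbols were not analysed here.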

Additional observations from a re-analysis of the deposited data

How the results depend on the processing

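Under the 18 alternatives, 36 of the 59 genes kept their call and direction in each, 35 of them as rises, and 23 changed in at least 1; no fall held in all. The number of rises stayed within 1.5 times of 45 under each alternative. Falls, 5 in the main fit, numbered 6 with upper quartile scaling, 6 with a filter of 5 CPM in 3 libraries and 7 with library sizes alone. They numbered 3 with no filter, 3 with the replicate block, 2 after centring on windows, 1 at a threshold of 0.01 and 3 to 4 with a library left out. In Pol I transcription 4 genes rose and 2 fell with library sizes alone. snoRNP falls were 0 after centring or at 0.01. Small subunit falls were 1 with RLE, no filter, DESeq2, the replicate block, centring or any library left out, and 0 at 0.01. They were 3 with upper quartile scaling, library sizes alone or the filter of 5 CPM. Large subunit falls were 0 with no filter, the replicate block, centring or at 0.01, and 0 to 1 with a library left out. Falls among other pathway genes were 87 with library sizes alone and 29 after centring or at 0.01, against 45. Genes at least 1.5-fold changed were 7 with library sizes alone. The median was 0.36 with upper quartile scaling, 0.3 with library sizes alone, 0.38 and 0.37 with filters of 1 and 5 CPM in 3 libraries, 0.35 after centring and 0.36 to 0.4 with a library left out.

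Signs reversed as follows, and apart from the shift that scaling itself makes the cause was not tested. With library sizes alone Polr1a was -0.02, Tcof1 -0.08, Emg1 -0.08, Riok1 -0.07 and Pes1 -0.03. With upper quartile scaling Tcof1 was -0.02, Emg1 -0.02 and Riok1 -0.0069. With a filter of 1 CPM Tcof1 was -0.0042, and with 5 CPM Tcof1 was -0.02 and Emg1 -0.01. After centring Polr1e was -0.07, Tcof1 -0.06, Nhp2 0.02, Riok1 -0.1, Nip7 0.06, Smarca5 0.17, Rpl4 -0.01 and Uty -0.33. Tcof1 was -0.0048 without shNT replicate 2, Nop10 0.02 without shNT replicate 3 and 0.0069 without shARF replicate 3, and Emg1 -0.04 without shARF replicate 3.

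The samples share only a number, and no replicate pairs best with its own: with the replicate block 44 of the 59 genes rose and 3 fell, genes called higher were 4604 and genes called lower 4309 over all genes, and among the 59 the calls of Polr1a, Utp14a and Nip7 were not made. With 3 libraries a group, an exact permutation test cannot go below 0.1, and at the depth of these libraries the median SE of the 59 genes was 0.038.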

Other observations

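Several of the 59 genes host snoRNAs. In the annotation used, 26 snoRNA genes lie within Taf1d, Nop56, Nop58, Dkc1, Wdr43, Tsr1 and Gnl3, on the strand of the host. Of these, 16 overlap annotated exons of the host (all of those in Taf1d and Gnl3) and 10 do not. Their counts were 0 to 44 per library, against at least 342 for each of the 59 genes. Snord69 and Snord19, both within Gnl3, had exactly 1 count in each of the 6 libraries. So did Gm25500, Gm24357 and Gm22579 within Taf1d, Gm23187 and Gm23650 within Nop56, and Gm26293 within Nop58. Gm23455, within Taf1d, had exactly 2 in each. All of these overlap exons of the host, and why their counts did not vary was not tested. Snord53, within Wdr43, had 17, 16 and 7 counts in shNT and 15, 14 and 18 in shARF, and Snord110, within Nop56, had 4, 7 and 5 in shNT and 11, 8 and 7 in shARF. The counts of these short RNAs were too few to set beside the rise of their hosts.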
